A study of Mus musculus with 6 samples.

Results

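The transcripts of 32 genes of homologous recombination and DNA damage repair were followed in hair germ stem cells sorted from mouse back skin. The genes were a given list, matched by symbol in the gene tables of every library, and all 32 were found among 46517 genes. All 32 passed the filter on low counts and were among the 19640 genes tested. The mice were at postnatal day 60, and the cells were taken 3 days after the hair had been pulled out (depilation), which starts a new hair cycle. Every mouse carried Sox9-CreER, a Cre recombinase under the Sox9 promoter that becomes active on drug treatment, and R26-lox-stop-lox-YFP, a reporter that Cre switches on. WT mice carried these 2 alleles alone. LEF1cKO mice also carried Lef1fl/fl, so that Lef1 could be lost only where Cre was active. LEF1_TCF7dKO mice, called the double knockout here, carried Lef1fl/fl and Tcf7-/-, so that Tcf7 was disrupted in every cell of the animal and not in the sorted cells alone. LEF1 and TCF7 are DNA-binding partners of beta-catenin in Wnt signalling. The sort used P-cadherin, Sca-1, CD34, integrin b1 and YFP, sex was labelled as mixed in each group, and there were 2 libraries per group. The labels do not say whether the libraries of a group came from separate animals, so the p-values measure the spread between these libraries, which may be technical.

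Homologous recombination repairs a DNA double-strand break by copying an intact sister strand, and so it is used mainly by cells that are replicating their DNA. The MRE11-RAD50-NBN complex finds and trims the break, BRCA1 with BARD1 and PALB2 brings in BRCA2, which prepares the broken end to search for the matching sequence. The Fanconi anaemia core complex marks FANCD2 and FANCI when a crosslink stalls a replication fork, and the kinases ATM and ATR, acting through CHEK2 and CHEK1, hold the cell cycle while repair goes on.

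Depth ran from 40480694 to 63220022 expected counts per library, and 14743 to 16032 genes reached 1 TPM, the level scaled for transcript length and for the size of the library. Levels in the text are TPM in replicate 1 and then replicate 2 of a group. Differences are log2 fold changes ± SE from edgeR's quasi-likelihood test fitted on all 6 libraries, with p-values adjusted by Benjamini-Hochberg over all genes tested. That test returns no SE, so the SE was computed as the absolute log2 fold change divided by the square root of the test's F statistic. "Fell" and "rose" mean an adjusted p under 0.05. Lef1 measured 21.44 and 20.36 TPM (WT), 13.51 and 8.37 (LEF1cKO) and 9.22 and 9.42 (double knockout). Tcf7 measured 26.93 and 36.01 TPM (WT), 29.31 and 27.79 (LEF1cKO) and 13.65 and 18 (double knockout). Both targeted genes were therefore lower where their loss was labelled, although transcript was still read, and reads outside a deleted part do not measure the protein. The genes of the 4 sorted surface proteins were read in every library and differed in level between groups. Cdh3 (P-cadherin) measured 134 and 130 TPM (WT), 134 and 116 (LEF1cKO) and 65.9 and 85.9 (double knockout), and Itgb1 (integrin b1) 167 and 155, 167 and 157, and 144 and 139 TPM. Ly6a (Sca-1) measured 26.5 and 14.7, 21.8 and 45.9, and 111 and 97.3 TPM in the same order, and Cd34 13.5 and 8.72, 11.3 and 17.8, and 42.0 and 30.9 TPM. Both double knockout libraries were thus below WT in Cdh3 and Itgb1 and above WT in Ly6a and Cd34, and the part of this in the repair gene levels was not tested. In bulk RNA of sorted cells, fewer cells of a type and less RNA per cell cannot be told apart.

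Most of the repair genes were lower in the double knockout than in WT, and none passed the test between LEF1cKO and WT. Against WT, 26 of 32 members fell in the double knockout (81.2%) and 0 rose, where 19.6% of all genes tested fell. Markers of epidermis, fibroblasts and immune cells were higher in the same libraries (summed epidermal markers 1394 to 1703 TPM in WT and 13145 to 13960 after loss of both factors), and S phase and mitotic genes were lower. Their part in the result was not tested. The median difference of the members was -0.89, a fold of 0.541, and that of all genes tested was 0.01. In TPM, 27 members had both double knockout libraries below both WT libraries, which was so for 30.7% of all genes tested. The deepest falls were those of the helicase gene Blm (-1.52), the nuclease subunit gene Eme1 (-1.46), the strand-pairing gene Rad51c (-1.35) and Fanci (-1.34). The 6 members that did not pass were Fancb, Brca2, Rbbp8, Xrcc3, Rad50 and Nbn. Fewer members, and fewer of all genes tested, fell without WT replicate 1, WT replicate 2 or double knockout replicate 1. The median of the members was then -0.88, -0.84 and -0.81. Fanci, Brca1, Rad51ap1, Rad54l, Rad54b, Blm, Exo1, Eme1, Rad18 and Chek1 passed whichever of the 6 libraries was left out.

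**Figure D1:**
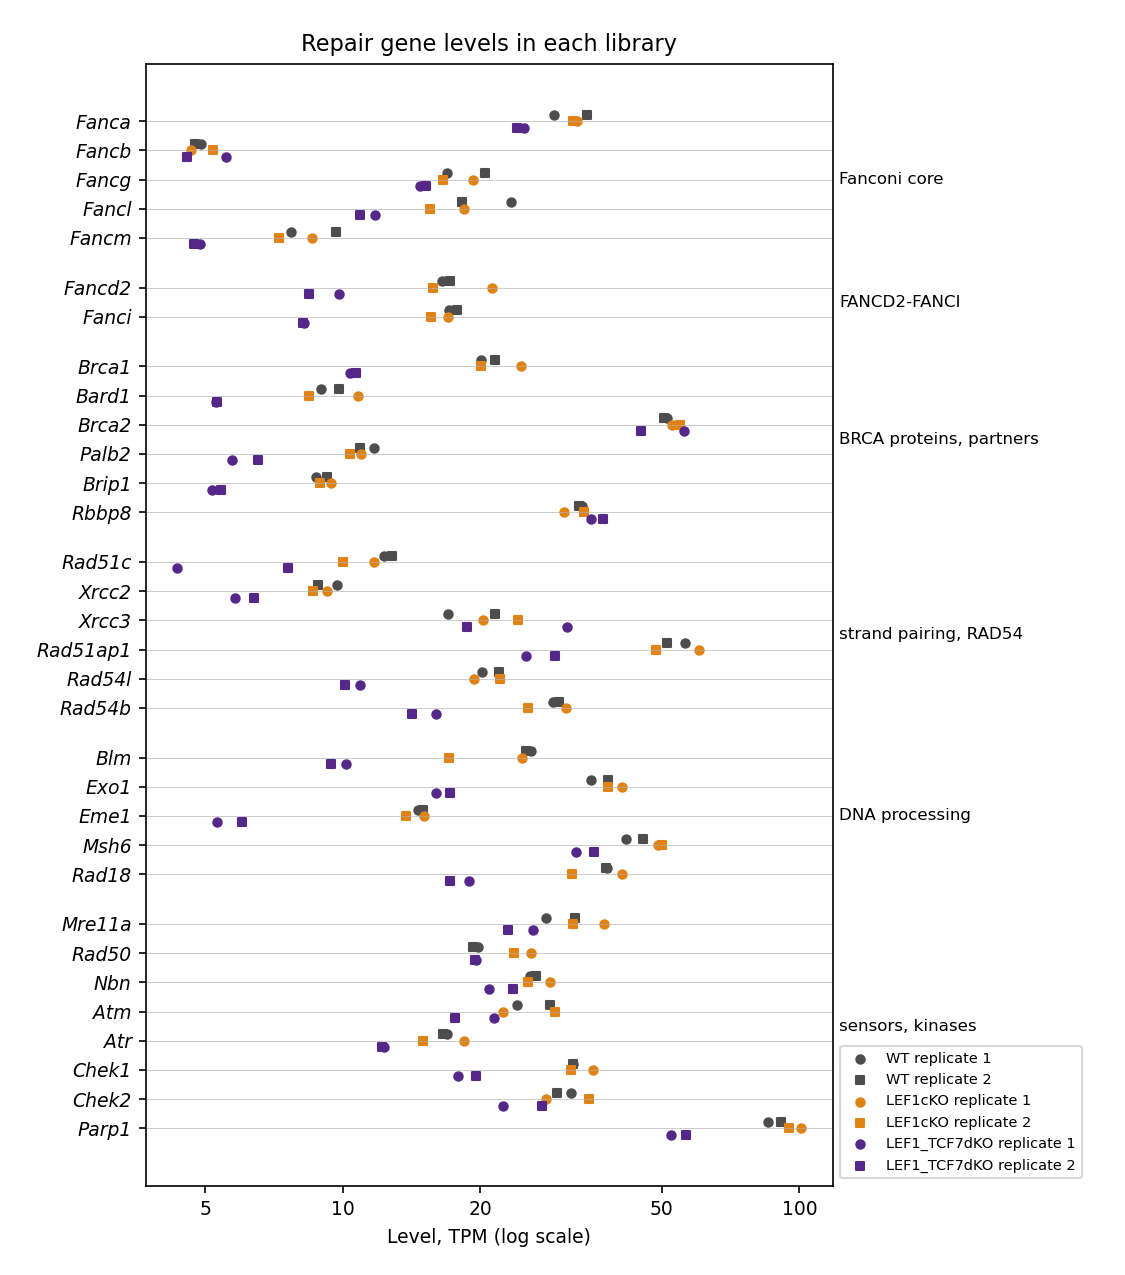
Level of each repair gene in TPM (log axis) in each of the 6 libraries, grouped by role; circles are replicate 1 and squares replicate 2 of WT (grey), LEF1cKO (orange) and LEF1_TCF7dKO (purple). In 27 of 32 genes both double knockout libraries lie below both WT libraries, while Brca2, Fancb, Xrcc3 and Rad50 overlap and Rbbp8 lies above.

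The promoters were searched for words of cell cycle and TCF/LEF regulation. RefSeq windows on GRCm38.p6, from 250 bases before to 50 bases after a transcript start, were at hand for 25 of the 32 members. They were searched on both strands for words of 4 kinds: E2F sites (TTTGGCGC, TTTCCCGC, TTTCGCGC or TTTGCCGC), the CHR element (TTTGAA), the CCAAT box (CCAAT) and TCF/LEF sites (CTTTGAA or CTTTGAT). The TCF/LEF word CTTTGAA contains the CHR word. E2F factors switch on genes of DNA replication, NF-Y binds CCAAT boxes in many promoters active in dividing cells, and TCF/LEF sites are the letters LEF1 and TCF7 are known to bind. An E2F word was found in 6 of 25 members (24%), in 4.18% of the genes tested that have a window, and in 7.44% of those that fell in the double knockout against WT. Of the 22 members with a window that fell, 5 held it, as did 1 of the 3 that did not fall. The CCAAT word was found in 14 of 25 members (56.0%) and in 42.1% of the tested genes with a window. The CHR word was found in 2 members (8.0%) and in 14.9% of those genes. A TCF/LEF word was found in 2 members, Bard1 and Eme1 (8.0%), and in 7.41% of those genes. Bard1 and Eme1 are also the 2 members with the CHR word, which in both lies inside the TCF/LEF word. The same sites were therefore counted in both searches. All words found are matches of letters, with no measurement of binding.

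The 6 members with an E2F word are shown because the word stood in 24% of the 25 members with a window and in 4.18% of the 12253 tested genes with one. Each line gives 30 bases in the direction of the gene with the word in capitals, which reads GCGGGAAA where it lies on the opposite strand. The words of Bard1 (chr1:71103163-71103192, minus strand), Rad51c (chr11:87404941-87404970, minus strand), Fancg (chr4:43010335-43010364, minus strand), Msh6 (chr17:87975054-87975083, plus strand), Chek2 (chr5:110839820-110839849, plus strand) and Brca2 (chr5:150522442-150522471, plus strand) were these:
Bard1: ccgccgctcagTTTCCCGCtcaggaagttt
Rad51c: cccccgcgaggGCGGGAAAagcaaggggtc
Fancg: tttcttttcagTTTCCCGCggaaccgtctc
Msh6: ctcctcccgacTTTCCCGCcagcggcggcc
Chek2: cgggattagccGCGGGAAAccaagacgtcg
Brca2: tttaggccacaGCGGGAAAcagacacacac
The word begins at base -209 from the transcript start in Bard1, -168 in Brca2, -152 in Chek2, -52 in Fancg and -5 in Rad51c, and at base 16 after the start in Msh6. A second start of Rad51c held another E2F word. The 250 bases before the start are shown for Brip1 (chr11:86201194-86201443, minus strand), which fell and holds 3 CCAAT words, and for Xrcc3 (chr12:111813880-111814129, minus strand), which did not fall and holds 6. Capitals mark CCAAT, or ATTGG where it lies on the opposite strand:
Brip1: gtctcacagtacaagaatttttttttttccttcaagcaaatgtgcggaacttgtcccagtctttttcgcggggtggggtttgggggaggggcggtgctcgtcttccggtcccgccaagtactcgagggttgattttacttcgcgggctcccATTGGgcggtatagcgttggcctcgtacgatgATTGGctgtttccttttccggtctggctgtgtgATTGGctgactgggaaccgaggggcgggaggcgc
Xrcc3: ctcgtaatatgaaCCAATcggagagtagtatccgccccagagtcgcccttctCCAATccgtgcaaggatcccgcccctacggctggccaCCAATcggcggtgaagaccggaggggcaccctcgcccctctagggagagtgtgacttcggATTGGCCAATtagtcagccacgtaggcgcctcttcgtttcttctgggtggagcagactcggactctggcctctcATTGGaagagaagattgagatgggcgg

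Of the 5 Fanconi core genes, 4 fell between WT and the double knockout, and the median over the 5 was -0.71. Of all genes tested, 19.6% fell in this comparison, which is the share for the other role groups below as well. Differences between the role groups were not tested. Fancm, the DNA translocase that brings the core complex to a stalled fork, measured 7.71 and 9.69 TPM (WT), 8.56 and 7.25 (LEF1cKO) and 4.88 and 4.73 (double knockout). It fell by 1.0 ± 0.17 (adjusted p = 0.00788), and the double knockout lay below all 4 other libraries. Fancl, the ubiquitin ligase of the complex, measured 23.4 and 18.3 TPM (WT), 18.4 and 15.5 (LEF1cKO) and 11.8 and 10.9 (double knockout) and fell by 0.96 ± 0.19 (adjusted p = 0.0125). Fanca, a scaffold of the complex (29.0 and 34.3 TPM in WT, 25.0 and 24.1 after loss of both factors), fell by 0.71 ± 0.13 (adjusted p = 0.00938). Fancg, its binding partner (16.9 and 20.5 TPM in WT, 14.8 and 15.2 after loss of both factors), fell by 0.50 ± 0.15 (adjusted p = 0.0405). Fancb, an X-linked core subunit and the lowest of the 32 in WT at 4.89 and 4.76 TPM, stood at 4.65 and 5.21 (LEF1cKO) and 5.55 and 4.57 (double knockout). Its groups overlapped and its difference from WT was -0.07 ± 0.17 (adjusted p = 0.762). None of the 4 falls among core genes passed without WT replicate 2. Over the single libraries left out, adjusted p reached 0.0803 for Fanca, 0.265 for Fancg, 0.104 for Fancl and 0.0578 for Fancm. Fancm also lost its call without double knockout replicate 1, Fancl without WT replicate 1 or double knockout replicate 1, and Fancg without each single library of WT or of the double knockout.

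Both genes of the pair that the core complex marks fell, with a median of -1.21. Fanci measured 17.1 and 17.8 TPM (WT), 17.0 and 15.6 (LEF1cKO) and 8.24 and 8.18 (double knockout). It fell by 1.34 ± 0.12 against WT with an adjusted p of 0.00271, the smallest among the 32 members, and held without each single library. Fancd2 measured 16.5 and 17.2 TPM (WT), 21.2 and 15.8 (LEF1cKO) and 9.81 and 8.44 (double knockout). It fell by 1.07 ± 0.19 (adjusted p = 0.00873), which did not pass without WT replicate 2 or replicate 1 of the double knockout (up to adjusted p = 0.055). The double knockout libraries of both genes lay below the other 4.

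Among the BRCA genes and their partners, 4 of 6 fell against WT, with a median of -0.86, and Brca2 and Rbbp8 did not. Brca1 (chr11:101488764-101551955, mm10) measured 20.1 and 21.6 TPM (WT), 24.6 and 20.1 (LEF1cKO) and 10.4 and 10.7 (double knockout). It fell by 1.10 ± 0.14 (adjusted p = 0.0045), which held without each single library. Bard1, which forms the ubiquitin ligase with BRCA1, measured 8.99 and 9.84 TPM (WT), 10.8 and 8.44 (LEF1cKO) and 5.29 and 5.31 (double knockout) and fell by 0.97 ± 0.17 (adjusted p = 0.00889). The ratio of Brca1 to Bard1 in TPM was 2.23 and 2.19 in WT and 1.97 and 2.02 in the double knockout. Palb2, the bridge to BRCA2, measured 11.7 and 10.9 TPM (WT), 11 and 10.4 (LEF1cKO) and 5.72 and 6.54 (double knockout) and fell by 0.87 ± 0.14 (adjusted p = 0.00715). Brip1, a helicase that binds BRCA1 and whose promoter is printed above, measured 8.74 and 9.24 TPM (WT), 9.44 and 8.91 (LEF1cKO) and 5.17 and 5.42 (double knockout) and fell by 0.84 ± 0.13 (adjusted p = 0.00664). Without WT replicate 2 the falls of Bard1, Palb2 and Brip1 did not pass. Bard1 was also lost without double knockout replicate 1 and Palb2 without WT replicate 1, with highest adjusted p of 0.0659 for Bard1, 0.0722 for Palb2 and 0.0575 for Brip1.

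Brca2 (chr5:150522630-150570329, mm10) did not pass against WT. It measured 51.3 and 50.5 TPM (WT), 52.5 and 54.8 (LEF1cKO) and 55.8 and 45.1 (double knockout), so that the double knockout libraries lay on both sides of the other 4. On counts its difference from WT was -0.35 ± 0.12 (adjusted p = 0.059), which passed with DESeq2. In the double knockout there were 9.75 and 6.90 TPM of Brca2 for each TPM of Palb2, against 4.37 and 4.62 in WT. In expected counts, which are not scaled for length, the same ratio was 6.02 and 4.74 in the double knockout and 3.57 and 3.86 in WT, and 4.68 and 4.61 in LEF1cKO. The estimated effective length of Brca2 transcripts averaged 1852 bases, 17.3% of its longest annotated coding transcript of 10724 bases, and TPM divides by that estimate. With the effective length of each library as an offset, an alternative chosen after the data were seen, the difference from WT was -0.16 (adjusted p = 0.346). Rbbp8, which encodes the end-resection factor CtIP, measured 33.5 and 33.0 TPM (WT), 30.5 and 33.7 (LEF1cKO) and 35 and 37.1 (double knockout). It was the 1 member with both double knockout libraries above WT in TPM, while its fitted difference was -0.03 ± 0.09 (adjusted p = 0.813).

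Of the genes for strand pairing and the RAD54 group, 5 of 6 fell, with a median of -1.16 over the 6. Rad51c (chr11:87376645-87404954, mm10) had the least even pair of libraries of any member. It measured 12.3 and 12.8 TPM (WT), 11.7 and 10 (LEF1cKO) and 4.35 and 7.58 (double knockout). It fell by 1.35 ± 0.26 (adjusted p = 0.0115), and leaving out either WT library ended the call (highest adjusted p = 0.0706). Xrcc2, another gene of strand pairing, measured 9.74 and 8.84 TPM (WT), 9.26 and 8.63 (LEF1cKO) and 5.82 and 6.41 (double knockout). It fell by 0.79 ± 0.15 (adjusted p = 0.0121), which did not pass without WT replicate 1, WT replicate 2 or replicate 1 of the double knockout (up to adjusted p = 0.103). Rad51ap1, which helps strands pair, measured 56.3 and 51.3 TPM (WT), 60.4 and 48.6 (LEF1cKO) and 25.2 and 29.2 (double knockout) and fell by 1.23 ± 0.18 (adjusted p = 0.00578). The motor gene Rad54l measured 20.2 and 22 TPM (WT), 19.4 and 22.1 (LEF1cKO) and 10.9 and 10.1 (double knockout) and fell by 1.23 ± 0.12 (adjusted p = 0.00331). Its relative Rad54b measured 28.9 and 29.7 TPM (WT), 30.9 and 25.5 (LEF1cKO) and 16 and 14.2 (double knockout) and fell by 1.10 ± 0.16 (adjusted p = 0.00588). In these last 3 genes the double knockout lay below the other 4 libraries.

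Xrcc3, a binding partner of RAD51C, was the 1 gene of these 6 that did not pass. It measured 17.0 and 21.6 TPM (WT), 20.3 and 24.2 (LEF1cKO) and 31.0 and 18.7 (double knockout), with a difference from WT of 0.24 ± 0.22 (adjusted p = 0.425). Its 2 double knockout libraries lay on both sides of the LEF1cKO libraries, and the groups overlapped. Its exons overlap those of Klc1 on the opposite strand, which measured 62.4 and 73.0 TPM (WT), 81.4 and 81.2 (LEF1cKO) and 112 and 88.5 (double knockout). The sources used here do not state whether counting used strand, so reads from the overlapping stretch may have been given to either gene. The part of this in the level of Xrcc3 was not tested. Exons of Fanca, Fancl, Fancd2, Fanci, Rad54l, Eme1, Msh6 and Mre11a also overlap a protein-coding gene on the opposite strand, and those of Rad54b overlap Fsbp on its own strand.

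All 5 genes for DNA unwinding, cutting, mismatch recognition and bypass fell, with a median of -1.2. Blm (chr7:80454733-80535119, mm10), a helicase that takes apart joined DNA molecules, measured 25.8 and 25.2 TPM (WT), 24.7 and 17.1 (LEF1cKO) and 10.2 and 9.44 (double knockout). It fell by 1.52 ± 0.20 (adjusted p = 0.00497), the deepest change of the 32. Eme1 (chr11:94644996-94653964, mm10), a subunit of the nuclease that cuts such joints with MUS81, measured 14.6 and 15.0 TPM (WT), 15.1 and 13.8 (LEF1cKO) and 5.31 and 6.02 (double knockout) and fell by 1.46 ± 0.16 (adjusted p = 0.00359). Exo1, a nuclease of end resection and mismatch repair, measured 34.9 and 38.2 TPM (WT), 40.9 and 38.1 (LEF1cKO) and 16 and 17.2 (double knockout) and fell by 1.10 ± 0.11 (adjusted p = 0.0034). Rad18, the ubiquitin ligase that opens lesion bypass, measured 38.0 and 37.8 TPM (WT), 40.9 and 31.8 (LEF1cKO) and 18.9 and 17.2 (double knockout) and fell by 1.2 ± 0.16 (adjusted p = 0.005). These 4 falls held without each single library. The mismatch-binding gene Msh6 went from 41.8 and 45.5 TPM in WT and 49.0 and 50 in LEF1cKO to 32.4 and 35.6 in the double knockout. It fell by 0.50 ± 0.11 (adjusted p = 0.0158), which did not pass with either WT library or replicate 1 of the double knockout left out (up to adjusted p = 0.154).

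Of the 8 sensors and checkpoint kinases, 6 fell, and their median of -0.59 was the nearest to 0 of the 6 groups of members. Parp1, a sensor of strand breaks and the highest of the 32 in WT, measured 85.6 and 91.1 TPM (WT), 101 and 95.1 (LEF1cKO) and 52.3 and 56.6 (double knockout) and fell by 0.90 ± 0.14 (adjusted p = 0.00711). Chek1, the kinase downstream of ATR, measured 31.9 and 32 TPM (WT), 35.3 and 31.6 (LEF1cKO) and 17.9 and 19.6 (double knockout). It fell by 0.93 ± 0.11 (adjusted p = 0.00421), the deepest change of the 8 and the 1 that held without each single library. Chek2, the kinase downstream of ATM, measured 31.6 and 29.5 TPM (WT), 27.9 and 34.7 (LEF1cKO) and 22.4 and 27.3 (double knockout) and fell by 0.59 ± 0.12 (adjusted p = 0.0147). The upstream kinase genes Atr (-0.70 ± 0.16, adjusted p = 0.0198) and Atm (-0.55 ± 0.10, adjusted p = 0.0102) fell as well. Atr stood at 16.9 and 16.6 TPM in WT and 12.3 and 12.2 in the double knockout, and Atm at 24.1 and 28.4 in WT and 21.5 and 17.6 in the double knockout.

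Of the 3 genes of the break-sensing complex, 1 fell by the test. Mre11a, its nuclease, measured 27.9 and 32.3 TPM (WT), 37.3 and 32 (LEF1cKO) and 26.1 and 23.0 (double knockout) and fell by 0.59 ± 0.12 (adjusted p = 0.0125). Rad50, its tether, measured 19.8 and 19.3 TPM (WT), 25.8 and 23.7 (LEF1cKO) and 19.6 and 19.5 (double knockout), with a difference from WT of -0.13 ± 0.09 (adjusted p = 0.32). Nbn, its adaptor to ATM, measured 25.7 and 26.5 TPM (WT), 28.5 and 25.5 (LEF1cKO) and 20.9 and 23.6 (double knockout), with a difference of -0.37 ± 0.13 (adjusted p = 0.0759). The differences between these 3 genes were not tested. Without WT replicate 2 the falls of Parp1, Chek2, Atr, Atm and Mre11a did not pass (highest adjusted p = 0.0591, 0.125, 0.10, 0.11 and 0.108). Of these, the call of Parp1 held without double knockout replicate 1, and those of Parp1 and Atm held without WT replicate 1. That of Atr was also lost without double knockout replicate 2. With effective length as an offset, Mre11a (adjusted p = 0.0646), Chek2 (adjusted p = 0.0742) and the core gene Fancg (adjusted p = 0.0785) did not pass.

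**Figure D2:**
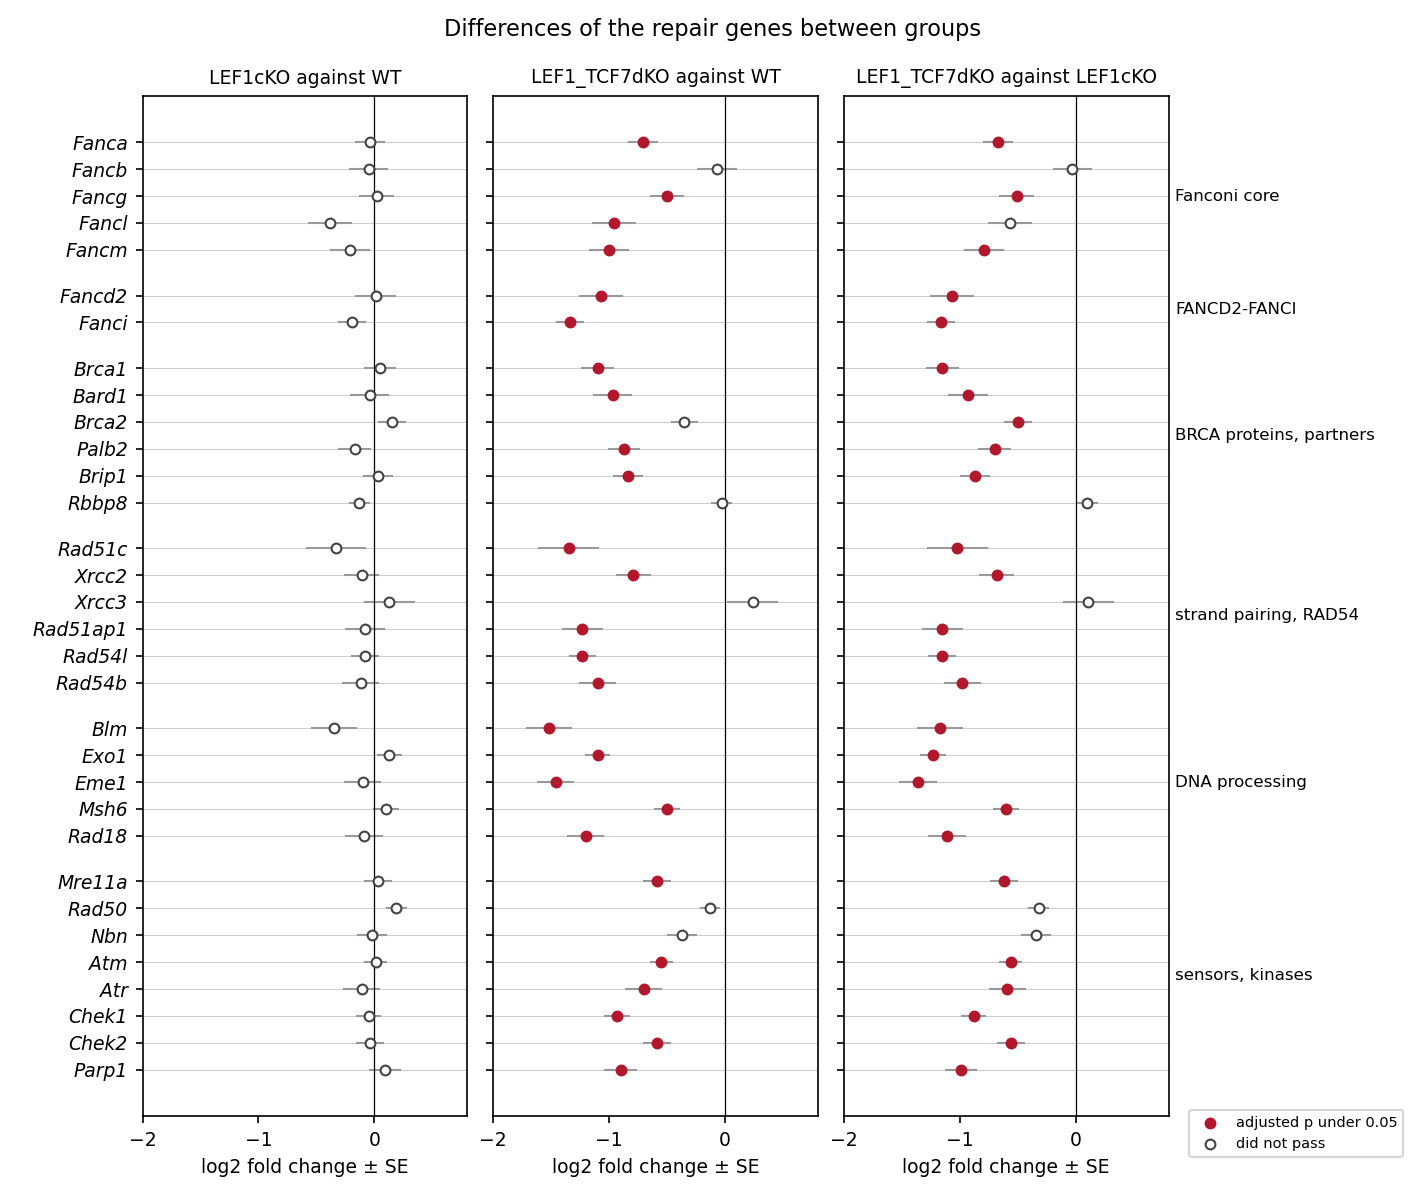
Log2 fold change ± SE of each repair gene in the 3 comparisons (edgeR on all 6 libraries), filled red where the adjusted p is under 0.05. No gene passed in LEF1cKO against WT, and 26 of 32 fell in each comparison of the double knockout, with medians of -0.89 against WT and -0.74 against LEF1cKO.

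No repair gene passed the test after loss of Lef1 alone. In LEF1cKO against WT, 0 of 32 members passed edgeR's quasi-likelihood test, 0 had an unadjusted p under 0.05 and 0 passed with DESeq2. Of all genes tested, 0.601% passed and 9.58% had an unadjusted p under 0.05. The members' differences ran from -0.38 ± 0.19 (Fancl) to 0.19 ± 0.09 (Rad50), with a median of -0.04. In TPM, both LEF1cKO libraries lay below WT in Fanci, Rad51c and Blm and above WT in Brca2, Msh6, Rad50 and Parp1. These are 7 of 32 members, while the groups did not overlap in 41.7% of all genes tested. The 2 LEF1cKO libraries were not level with each other. Replicate 1 was the higher in 24 of 32 members in LEF1cKO (median log2 ratio 0.13), in 12 in WT and in 16 in the double knockout. Blm had the widest gap in LEF1cKO (24.7 and 17.1 TPM, log2 ratio 0.53). The median difference from WT was 0.08 without LEF1cKO replicate 2 and -0.13 without LEF1cKO replicate 1, so its sign rests on 1 library.

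Against LEF1cKO, the double knockout again had 26 members that fell and 0 that rose, where 14.1% of all genes tested fell. The median was -0.74, and 28 members had both double knockout libraries below both LEF1cKO libraries in TPM, as did 29.4% of all genes tested. This comparison uses the same double knockout libraries as the one against WT, so the 2 counts are not separate evidence. Eme1 (-1.36 ± 0.16, adjusted p = 0.0108), Exo1 (-1.23 ± 0.11, adjusted p = 0.0107), Blm (-1.17 ± 0.20, adjusted p = 0.016) and Fanci (-1.16 ± 0.12, adjusted p = 0.0107) fell most. Fancb, Fancl, Rbbp8, Xrcc3, Rad50 and Nbn did not pass. Fancl was at -0.57 ± 0.19 (adjusted p = 0.0717) and Rad50 at -0.32 ± 0.09 (adjusted p = 0.0507). Brca2 fell by 0.50 ± 0.12 (adjusted p = 0.0302) on counts while its TPM groups overlapped, and with effective length as an offset its difference was -0.15 (adjusted p = 0.379). The call of Brca2 held only when LEF1cKO replicate 2 was the library left out (up to adjusted p = 0.097). Without double knockout replicate 1, 0 of 32 members passed (median -0.71), and 1 of 20389 genes tested did. Fewer members, and fewer of all genes tested, also fell without LEF1cKO replicate 1, double knockout replicate 2 or WT replicate 2. The median of the members was then -0.64, -0.78 and -0.74.

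Other genes of recombination and crosslink repair, which are not members, moved in the same direction where they passed. Of 25 such genes, 12 fell in the double knockout against WT and 0 rose, with a median of -0.50. The share of all genes tested that fell was 19.6%. Gen1, a nuclease that resolves joined molecules, fell by 1.29 ± 0.15 (adjusted p = 0.00394), and Dna2, a nuclease of end resection, fell by 1.22 ± 0.13 (adjusted p = 0.00359). Of 18 genes for checkpoint signalling and chromatin at breaks, 13 fell and 0 rose, with a median of -0.67. Among them were Clspn, the adaptor of CHEK1 (-1.28 ± 0.17, adjusted p = 0.00489), Tipin, a fork protection factor (-1.15 ± 0.11, adjusted p = 0.00316), and Etaa1, an activator of ATR (-0.98 ± 0.12, adjusted p = 0.0045). The falls of these 5 genes held without each single library. Without WT replicate 2 the counts were 4 for recombination and 7 for checkpoint genes, and without WT replicate 1 they were 7 and 8.

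Of the 5 lists for other routes of repair, 3 held falls and no rises, and 2 held both. Against WT, 19.6% of all genes tested fell in the double knockout and 18.0% rose. Of 9 end-joining genes, 4 fell and 2 rose with a median of -0.38. The Ku genes Xrcc5 (-0.74 ± 0.11, adjusted p = 0.00553) and Xrcc6 (-0.83 ± 0.13, adjusted p = 0.00658) fell, and Polm, a gap-filling polymerase, rose from 11.4 and 11.9 TPM in WT to 20.8 and 22.2 in the double knockout (0.85 ± 0.14, adjusted p = 0.00713). Of 11 genes of theta-mediated joining and lesion bypass, 4 fell and 0 rose (median -0.20), with Polq, the polymerase of theta-mediated joining, at -1.30 ± 0.15 (adjusted p = 0.00373). The bypass genes Polh (-0.46 ± 0.11, adjusted p = 0.0243) and Ube2a (-0.40 ± 0.10, adjusted p = 0.0286) fell too. In mismatch repair 4 of 6 fell (median -0.51), among them Msh3 (-0.53 ± 0.11, adjusted p = 0.0127), a mismatch-binding gene, and Pms1 (-0.89 ± 0.16, adjusted p = 0.00935). In base excision repair 8 of 19 fell (median -0.40), led by the ligase Lig1 (-1.21 ± 0.18, adjusted p = 0.00647), the flap nuclease Fen1 (-1.15 ± 0.16, adjusted p = 0.00555) and Apex1 (-1.09 ± 0.15, adjusted p = 0.00531), an endonuclease that cuts at lost bases. In nucleotide excision repair 9 of 20 fell and 3 rose (median -0.29), with the damage recognition gene Cetn2 at -0.89 ± 0.12 (adjusted p = 0.0052), Ercc8 at -0.82 ± 0.14 (adjusted p = 0.00889) and the TFIIH subunit gene Gtf2h3 at -0.77 ± 0.13 (adjusted p = 0.00733). Without WT replicate 2 the falls numbered 0 in end joining, 1 in theta joining and bypass, 0 in mismatch repair, 3 in base excision and 1 in nucleotide excision repair. Without WT replicate 1 they numbered 2, 1, 0, 4 and 1, and without double knockout replicate 1 they numbered 2, 1, 0, 5 and 3. Double knockout replicate 2 mattered for theta joining and bypass (2) and nucleotide excision repair (5). The rises in end joining and nucleotide excision repair were 0 in both lists with either WT library left out. Polq, Lig1, Fen1, Apex1 and Cetn2 held without each single library. The other 9 genes named from these lists lost their call without WT replicate 2, with adjusted p of up to 0.0527 (Xrcc5) to 0.205 (Polh) over the single libraries left out.

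Transcripts that p53 can induce after damage were examined as well. Of 18 such genes, 4 rose and 1 fell against WT, where 18.0% of all genes tested rose and 19.6% fell, and the median was 0.36 against 0.01 over all genes. Cdkn1a, the inhibitor of cyclin-dependent kinases, measured 85.2 and 90.8 TPM (WT), 115 and 126 (LEF1cKO) and 286 and 239 (double knockout). Its rise of 1.42 ± 0.11 (adjusted p = 0.00229) held without each single library. Perp, a desmosome protein of stratified epithelia, rose from 868 and 871 TPM to 1590 and 1610 (0.74 ± 0.13, adjusted p = 0.00812). Sesn2, a stress-induced regulator of metabolism, rose from 10.1 and 10.9 TPM to 19.5 and 24.1 (0.92 ± 0.14, adjusted p = 0.00692). Zmat3 rose by 0.48 ± 0.13 (adjusted p = 0.0364) and Bax, a promoter of cell death, fell by 0.86 ± 0.18 (adjusted p = 0.0157). With either WT library left out, Cdkn1a alone rose and 0 fell, and with either LEF1cKO library left out, 7 rose and 2 fell. DNA damage and p53 activity were not measured, and the part of the higher epidermal markers in these rises was not tested.

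**Figure D3:**
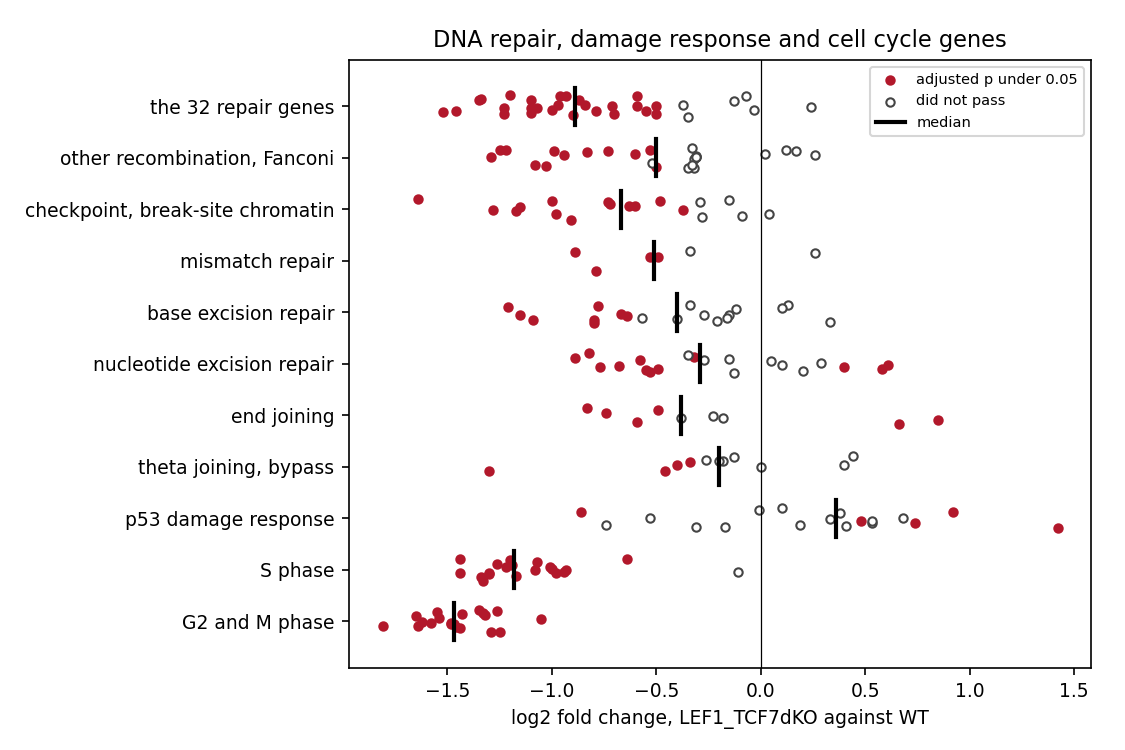
Log2 fold change in LEF1_TCF7dKO against WT of every tested gene in the repair, damage response and cell cycle lists, 1 point per gene, red where the adjusted p is under 0.05, with the list median as a black bar. The median is -0.89 for the 32 repair genes, -1.18 for S phase genes, -1.47 for G2 and M phase genes and 0.36 for p53 damage response genes.

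Cell cycle genes fell in the same libraries, where 19.6% of all genes tested fell against WT. Of 20 S phase genes, 19 fell in the double knockout against WT (median -1.18), and of 20 genes of G2 and M phase all 20 fell (median -1.47). All 20 fell in G2 and M phase whichever library was left out, and 13 to 19 did in S phase. In LEF1cKO against WT the medians were -0.04 and -0.16. Pola1, a replicative polymerase subunit, fell by 1.30 ± 0.13 (adjusted p = 0.00342), Tyms, which makes thymidylate, fell by 1.22 ± 0.12 (adjusted p = 0.00329) and Cdc45, part of the replicative helicase, fell by 1.2 ± 0.12 (adjusted p = 0.00337). In G2 and M phase, the kinase gene Aurka fell by 1.55 ± 0.13 (adjusted p = 0.00251), the chromosomal passenger gene Birc5 fell by 1.48 ± 0.11 (adjusted p = 0.00207) and the cyclin gene Ccnb2 fell by 1.44 ± 0.12 (adjusted p = 0.00229). The summed level of the 32 repair genes was 813 and 841 TPM (WT), 880 and 821 (LEF1cKO) and 566 and 557 (double knockout). That of the S phase genes was 2770 and 2947 TPM (WT), 3071 and 2728 (LEF1cKO) and 1307 and 1584 (double knockout). Members therefore came to 29.3% and 28.5% of the S phase sum (WT), 28.7% and 30.1% (LEF1cKO) and 43.3% and 35.2% (double knockout). Relative to the G2 and M phase sum they came to 26.6% and 29.1% (WT), 29.1% and 34.3% (LEF1cKO) and 47.2% and 50.2% (double knockout). Both double knockout libraries were above the other 4 in both percentages, which were not tested. The part of the lower cell cycle transcripts in the falls of the repair genes was not tested.

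**Figure D4:**
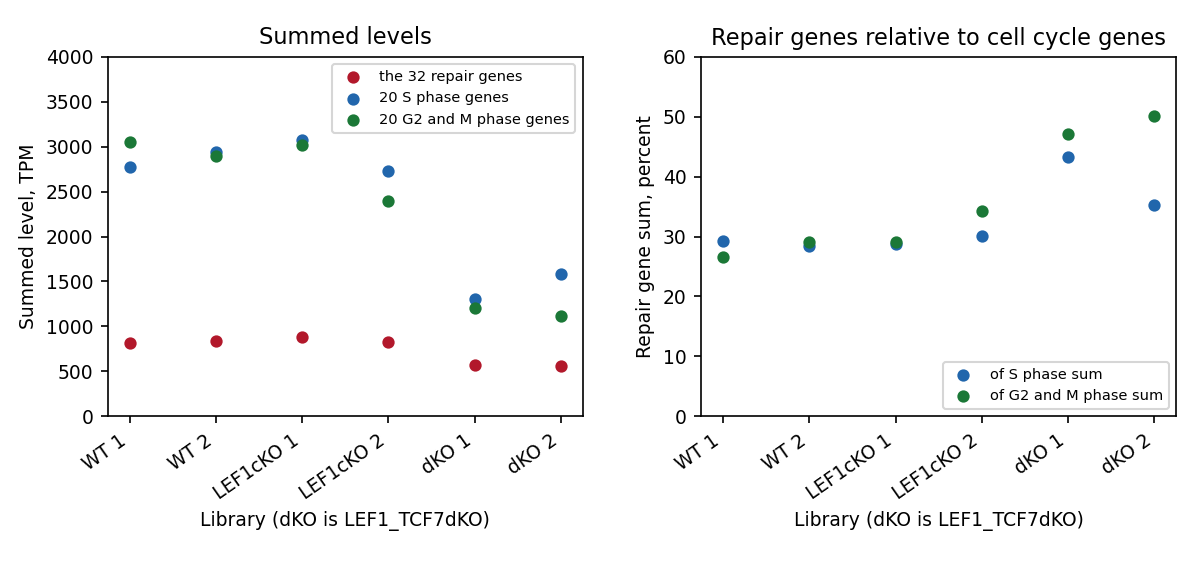
Left, summed TPM of the 32 repair genes, 20 S phase genes and 20 G2 and M phase genes in each library; right, the repair gene sum as a percentage of each cell cycle sum, 1 point per library. The repair sum falls from 813 to 880 TPM in the 4 WT and LEF1cKO libraries to 566 and 557 in the double knockout, where its percentage of each cell cycle sum is higher than in the other 4 libraries.

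Markers of other cells moved with the same libraries, where 18.0% of all genes tested rose against WT and 19.6% fell. Of 10 markers of differentiated epidermis, 9 rose in the double knockout against WT, and their summed level was 1394 to 1703 TPM in WT, 3382 to 3502 in LEF1cKO and 13145 to 13960 in the double knockout. Each of 6 fibroblast markers rose, with sums of 142 to 303, 385 to 868 and 1557 to 1865 TPM. Of 9 immune markers tested, 6 rose, with sums over 10 markers of 43.1 to 107, 179 to 284 and 731 to 777 TPM. The immune sums rest mainly on Cd74 and Lyz2, the highest of the 10 in every library. Among the T cell receptor genes, Cd3g stood at 2.12 and 0.86 TPM in WT and 1.97 and 0.49 in the double knockout. Trbc1 stood at 3.25 and 3.51 TPM in WT and 3.74 and 3.65 in the double knockout. The epidermal count was 7 to 10 with single libraries left out, the fibroblast count 2 without double knockout replicate 1 and 4 without WT replicate 2 or double knockout replicate 2, and the immune count 4 without double knockout replicate 1 and 6 otherwise. Of 5 endothelial markers, 4 rose, with sums of 5.69 to 6.43, 7.09 to 8.09 and 13.0 to 63.6 TPM, the highest in double knockout replicate 1. That count was 0 with either WT library left out, 2 with either LEF1cKO library left out and 1 without double knockout replicate 1. Of 8 melanocyte and Schwann cell markers, 3 rose, with sums of 412 to 603, 263 to 390 and 350 to 543 TPM, and 1 rose without WT replicate 1, WT replicate 2 or double knockout replicate 1, and 2 without double knockout replicate 2. The follicle marker list was not limited to the hair germ and held the genes of the 4 sorted surface proteins. Its sums, which do not measure the hair germ alone, were 9919 to 10274, 9299 to 12332 and 15203 to 19579 TPM. In that list, 4 of 10 genes were up and 4 down. These were 0 and 0 without WT replicate 2, 2 and 1 without WT replicate 1, 1 and 1 without double knockout replicate 1, and 2 and 4 without double knockout replicate 2. The follicle sums rest mainly on the keratin genes Krt5 and Krt14, the highest of the 10 in every library. Krt5 stood at 4940 and 5130 TPM in WT and 6520 and 8260 in the double knockout. Krt14 stood at 3410 and 3580 TPM in WT and 6700 and 8370 in the double knockout. Both double knockout libraries were also above both WT libraries in Krt15, Cd34 and Ly6a. They were below both WT libraries in Cdh3, Lgr5, Lhx2, Sox9 and Itgb1. Lhx2 stood at 337 and 381 TPM in WT and 114 and 198 in the double knockout. The part of these cells in the lower repair gene levels was not tested.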

How the data were processed

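Transcript levels were measured by paired-end mRNA sequencing of sorted cells, 6 libraries in 3 groups. RSEM 1.2.30, Bowtie2 2.2.9 and the build mm10 are named in the submitters' processing notes, and the sources used here do not name the annotation. The deposited expected count of a gene is an RSEM estimate without normalization, in which reads that match several genes are shared by the model. The deposited TPM divides by effective length and scales to the library. FPKM was not used. Of the rows, 92 spike-in entries summed to 0 counts and were dropped.

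The test was edgeR 4.0.16 (R 4.3.3) on rounded expected counts, with filterByExpr by group, TMM factors (0.962 to 1.04), the quasi-likelihood F test with group as the only term, and Benjamini-Hochberg adjustment over the 19640 genes tested, at 0.05. With 3 residual and 3.11 prior degrees of freedom and a biological coefficient of variation of 0.232, small differences are hard to detect. Replicates differed beyond counting error in each group (chi-square divided by its degrees of freedom 22.7, 84.3 and 63.3). The code was tested on simulated data. Leaving out 1 library leaves a single one in its group, whose spread is then taken from the other 2 groups. With a WT or double knockout library left out, fewer of all genes tested rose or fell against WT. Lower counts in those fits were therefore not limited to 1 list.

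The fits were repeated with DESeq2 1.42.0, limma 3.58.1 on log2(TPM + 1) and log2(TPM + 0.1), RLE size factors, scaling by library size, all genes unfiltered, genes above 10 CPM in at least 2 libraries, only the 2 groups compared, a replicate block, each library left out, and effective length as an offset, which was added after the data were seen. All 32 members are named. Other lists gave up to 3 named genes each, those that passed with the lowest p against WT, of which some are not reported here; Zmat3, Bax and marker genes beyond that rule were chosen after their values were seen. The members, lists and tests were chosen with earlier results of these data known. Positions come from GENCODE M21 and promoter windows from RefSeq.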

Additional observations from a re-analysis of the deposited data

How the results depend on the processing

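In LEF1cKO against WT, 0 of 32 repair genes passed under every alternative, and their median (-0.04) turned to 0.02 with limma on log2(TPM + 1) and on log2(TPM + 0.1) and ran from -0.13 to 0.08 with single libraries left out. In the double knockout against WT, 20 to 27 of 32 fell under the alternatives that kept all 6 libraries or both groups, and 10 to 27 with single libraries left out. The median (-0.89) was -0.81 with library size only, -0.76 with the 10 CPM filter, which kept 31 members, -0.71 with log2(TPM + 1), -0.76 with log2(TPM + 0.1), and -0.98 to -0.81 with single libraries left out. The median of all genes (0.01) was 0.09 with library size only and with log2(TPM + 1), and 0.13 with log2(TPM + 0.1). In the double knockout against LEF1cKO, 16 fell with either limma fit, 19 with only the 2 groups compared, and 0 to 28 with single libraries left out. That median (-0.74) was -0.69 with library size only, -0.66 with the 10 CPM filter, -0.65 with log2(TPM + 1), -0.82 with effective length as an offset, and -0.88 to -0.64 with single libraries left out. Of 511 recomputed differences of single members per comparison, 0 changed direction past the threshold, 57 against WT and 107 against LEF1cKO lost their call, and 3 and 5 gained one. Replicate numbers are shared between groups, but the labels give them no meaning and libraries with the same number did not deviate together (correlations -0.0486, 0.0526 and -0.00759). With a replicate block, 0, 25 and 23 members passed in the 3 comparisons, with medians of -0.05, -0.89 and -0.74. Every member had at least 222 counts in every library, and each group had 2 libraries.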
